A study of Mus musculus with 18 samples.

Results

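Cycling epithelial cells made up 27.3% of the epithelial cells captured from the adult SWISS mammary gland, and basal cells, luminal progenitors (LP) and mature luminal cells (ML) all held them. The members were 2601 of the 9511 epithelial cells of the single adult SWISS library, a share with a 95% exact binomial interval of 26.5 to 28.3%, and 2601 of the 13680 cells that the same rule found among the 107471 epithelial cells of all 18 libraries. A cell counted as epithelial when it had at least 500 detected genes, less than 20% mitochondrial UMIs (unique molecular identifiers, each standing for 1 captured transcript) and at least 5 UMIs of Epcam and the keratins Krt8, Krt18, Krt5 and Krt14 together. It was chosen as cycling by its measured values, at least 3 UMIs of Mki67, Top2a, Cenpf and Pclaf together, and the comparison group was the 5669 cells with none of these 4 transcripts. A further 1241 cells with 1 or 2 such UMIs belonged to neither group.

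The series profiled mouse mammary glands from the late embryo to post-involution by droplet single-cell RNA sequencing, with 1 library per sample. The SWISS library came from pooled virgin females aged 10 weeks with no treatment, whose estrous stage was not determined. The same age and virgin state applied to the other adult libraries, which were FVB/NJ replicates A10, P7 and D12 and a C57BL/6 library. Glands of pooled mice were dissociated and sorted for CD24 and CD29 after removal of blood and endothelial cells. As SWISS was represented by 1 library, strain and library cannot be told apart, no p-value was computed within it, and intervals cover counting error only. The E18.5 mammary and skin libraries came from C57BL/6 Lgr5-GFP embryos, and FVB/NJ glands at lactation day 10 (F11 and D6) were also profiled. These 4 entered no test. Other libraries used as replicates were C57BL/6 glands at postnatal day 5, before puberty at 2.5 weeks, and TEBs (terminal end buds) and ducts at 5 weeks from mice carrying an E-cadherin-GFP reporter. Per the paper, TEBs and ducts were dissected from the same mice, so they are not independent although the fits count them as separate libraries. FVB/NJ glands at pregnancy day 12.5 (H and G), pregnancy day 18.5 (F4 and B4) and post-involution (3 weeks) completed them.

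Epithelial cells that divide pass from G1 through S phase, in which DNA is replicated, to G2 and mitosis. Entry is set by D-type cyclins and the release of E2F factors from pocket proteins, which turns on replication genes, and later genes are switched on by MYBL2 and FOXM1. In the adult gland the basal layer is contractile, LP cells give rise to the milk-producing alveoli, and ML cells carry the hormone receptors and signal to their neighbours through factors such as RANKL and WNT4. Proliferation in the virgin gland is known to rise and fall with the estrous cycle.

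Promoters of the mitotic and the replication genes are shown first, because the genes behind them carry the replication and mitosis results below. RefSeq windows of 300 bases around the start (250 before and 50 after) were matched to 44 of the 51 G2 and M phase genes and 31 of the 43 S phase genes. The cell cycle homology region letters TTTGAA or TTCGAA, on either strand, stood in 32 of the 44 G2 and M windows (72.7%), in 5 of the 31 S windows (16.1%) and in 19.4% of all 27025 windows. CCAAT, the letters of the NF-Y box, stood in 75.0%, 71.0% and 37.9% of them. Letters of the E2F motif (TTTCGCGC, TTTGGCGC, TTTCCCGC or TTTGGCGG, of which the second and the last share their first 7 bases) stood in 6.82% of G2 and M windows, 35.5% of S windows and 2.42% of all. A match is a description of letters and not evidence of a bound site. Of the 4 genes that chose the cells, 3 windows held the homology letters and 4 held CCAAT. The 150 bases before the start are printed 5′ to 3′ from GRCm38.p6 in the direction of transcription, chosen after the values were seen, with motif letters in capitals. On the opposite strand the homology letters read TTCAAA, the CCAAT letters read ATTGG, and E2F letters read GCGCCAAA or CCGCCAAA.
Ube2c, chr2:164769779-164769928, plus strand: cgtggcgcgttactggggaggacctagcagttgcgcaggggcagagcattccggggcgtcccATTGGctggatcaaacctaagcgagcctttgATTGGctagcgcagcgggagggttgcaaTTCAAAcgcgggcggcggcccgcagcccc
Cdk1, chr10:69352913-69353062, minus strand: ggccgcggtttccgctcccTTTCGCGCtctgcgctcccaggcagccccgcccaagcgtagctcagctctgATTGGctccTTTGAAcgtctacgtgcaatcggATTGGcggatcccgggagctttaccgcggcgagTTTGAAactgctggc
Cdc20, chr4:118437344-118437493, minus strand: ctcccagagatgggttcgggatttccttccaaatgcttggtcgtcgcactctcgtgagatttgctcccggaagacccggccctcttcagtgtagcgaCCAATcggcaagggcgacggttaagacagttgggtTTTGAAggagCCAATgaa
Kif11, chr19:37376232-37376381, plus strand: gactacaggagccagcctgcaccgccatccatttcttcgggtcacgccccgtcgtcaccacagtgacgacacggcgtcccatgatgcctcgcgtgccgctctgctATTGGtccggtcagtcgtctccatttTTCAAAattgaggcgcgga
Clspn, chr4:126556830-126556979, plus strand: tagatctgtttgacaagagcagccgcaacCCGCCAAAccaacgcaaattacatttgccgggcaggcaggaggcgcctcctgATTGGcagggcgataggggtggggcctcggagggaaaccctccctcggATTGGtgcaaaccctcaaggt
Mcm5, chr8:75109359-75109508, plus strand: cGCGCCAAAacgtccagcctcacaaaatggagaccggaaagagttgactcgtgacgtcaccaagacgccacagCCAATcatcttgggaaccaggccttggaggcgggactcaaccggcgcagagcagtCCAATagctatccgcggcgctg
Hells, chr19:38930840-38930989, plus strand: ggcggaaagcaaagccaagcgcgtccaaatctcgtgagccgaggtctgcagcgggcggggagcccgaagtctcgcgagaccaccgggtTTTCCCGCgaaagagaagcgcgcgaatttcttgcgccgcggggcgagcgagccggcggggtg

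Ube2c and Cdc20 encode the conjugating enzyme and an activator of the anaphase-promoting complex, Cdk1 the mitotic kinase and Kif11 a motor that separates spindle poles. These 4 were picked by their log2 values among genes whose printed bases held both the homology letters and CCAAT. Both stood together in 59.1% of the G2 and M windows, so the 4 do not show what is typical. Clspn (a checkpoint mediator at the fork), Mcm5 (a subunit of the replicative helicase) and Hells (a chromatin remodeller) are S phase genes. They were picked in the same way among genes whose printed bases held E2F letters, and they show no homology letters there. A short stretch just after the start was looked for in GENCODE transcripts of each printed gene. It was found for Ube2c, Cdk1, Cdc20 and Hells and not for Kif11, Clspn and Mcm5, so the start of the latter was not checked by this.

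The label was checked with genes that the rule did not use. Summed levels are given in CPM, the UMIs of a gene or list scaled to a fixed total over the cells pooled. The S phase list went from 669 CPM in cells with no selecting UMI to 1098 CPM with 1, 1522 CPM with 2, 1928 CPM with 3 and 1916 CPM with 4, reached 3042 CPM with 10 to 19 and was lower again, at 2705 CPM, with 20 or more. The G2 and M phase list, which shares no gene with the rule, ran from 1243 CPM in cells with none to 2561 CPM in the cells with 2 UMIs, just under the threshold and 3095 CPM in the 239 cells just above it. It reached 8934 CPM in the 780 cells with 20 or more selecting UMIs. No gap separated the cells just inside the threshold from those just outside it, so the members are a range of a continuous score with a cut in it. Most lay far from the cut, since the median member had 12 selecting UMIs, the highest 110, and 1553 of 2601 (59.7%) had 10 or more. Pclaf was detected in 93.9% of members, Mki67 in 82.0%, Top2a in 79.2% and Cenpf in 71.9%, and all 4 in 51.5%.

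**Figure D1:**
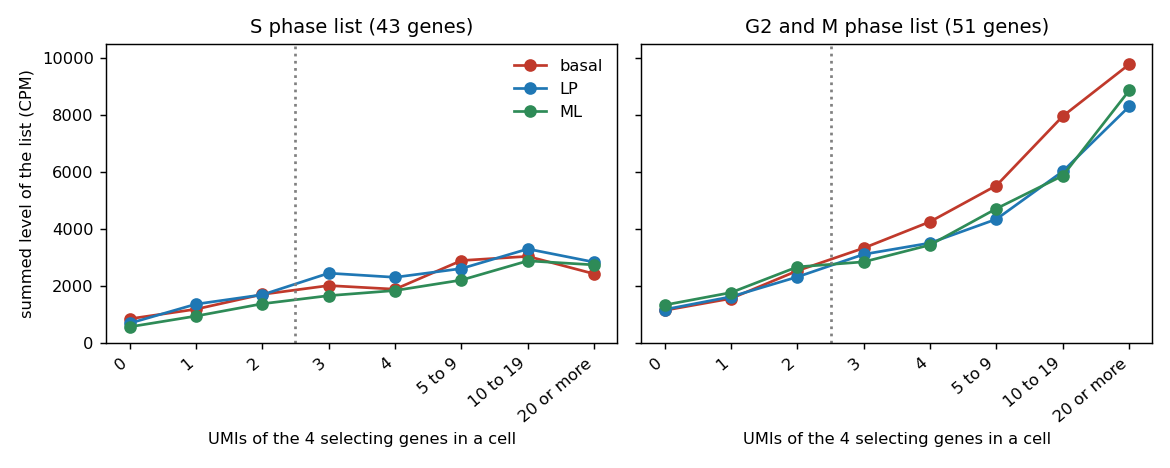
Summed level (CPM) of the S phase list (left) and the G2 and M phase list (right) in SWISS cells grouped by their UMIs of Mki67, Top2a, Cenpf and Pclaf, for basal, LP and ML cells; the dotted line marks the threshold of 3. The G2 and M level climbs through every step in all 3 classes, while the S level flattens or falls in the highest group.

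Class identity held in the cycling cells by markers outside the rule. Basal cells were those with more Krt5 and Krt14 than Krt8 and Krt18 UMIs. Of the others, a cell was LP with at least 2 UMIs of Kit, Elf5, Aldh1a3, Cd14 and Plet1 and ML with at least 3 of Prlr, Cited1, Areg, Pgr and Esr1, whichever sum was larger. Acta2, smooth muscle actin, stood at 4035 CPM in cycling basal, 309 CPM in cycling LP and 219 CPM in cycling ML cells. Csn3, kappa-casein, stood at 52.2, 2010 and 202 CPM in the same order, and the luminal pioneer factor Foxa1 at 2.14, 5.54 and 123 CPM. Of the cell types removed by the sort, Ptprc, which marks all leukocytes, was at 0 to 0.53 CPM in the 3 cycling classes. The 10 endothelial and mural markers summed to 9.49, 34.0 and 41.7 CPM in cycling basal, LP and ML cells and to 10.2, 35.5 and 45.0 CPM in non-cycling ones. Of these, Cdh5 and Emcn were at 0 in all 3 cycling classes and Pecam1 was at 1.07 to 2.46 CPM. The 5 erythroid markers summed to 23.1, 0.985 and 118 CPM in cycling and to 0.625, 2.02 and 91.7 CPM in non-cycling cells, in the same order. The 9 fibroblast markers summed to 281, 176 and 351 CPM in cycling and to 321, 248 and 780 CPM in non-cycling basal, LP and ML cells, and Dcn made up most of it in ML cells (250 and 688 CPM). The 13 immune markers summed to 3.92 to 27.1 CPM in cycling and 3.42 to 52.3 CPM in non-cycling cells.

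Cycling cells were deeper than their comparison cells in each class. The median was 8494 against 5294 UMIs in basal, 10634 against 5319.5 in LP and 14197.5 against 8304.5 in ML cells, while the mitochondrial share was close to 5% in both (4.72 to 5.03% and 4.57 to 5.02%). The keratin pair of the opposite lineage took 13.5 against 10.2% of keratin UMIs in basal cells, 2.89 against 1.34% in LP and 1.58 against 0.682% in ML cells. Its part in the results, and that of doublets, was not tested beyond the subset with a clear keratin call (one pair at least 4 times the other) given below. Of the members, 31 exceeded the study's limits of 6000 genes or 35000 UMIs, 0 of them basal, 9 LP and 22 ML. Cell barcodes of 29 members also occurred in another library.

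The cycling share in SWISS was similar in the 3 classes and several times that of every other adult library. It was 28.2% (26.6 to 29.9) of 2946 basal cells, 26.1% (24.4 to 27.9) of 2551 LP cells and 27.6% (26.2 to 29.1) of 3634 ML cells. The intervals overlap one another. Under the same rule the share of all epithelial cells was 7.75% (7.24 to 8.29) in FVB/NJ A10, 1.13% in C57BL/6, 1.52% in FVB/NJ D12 and 0.318% in FVB/NJ P7. By class it was 6.06, 6.47 and 8.71% in basal, LP and ML cells of A10, and 0.128 to 1.86% in the classes of the other 3. SWISS thus stood at 3.53 times the highest other adult library, and the interval of SWISS did not overlap that of any of the 4. This is a difference between single libraries with no replicate of SWISS. The C57BL/6 adult, which was processed together with SWISS, was among the lower ones. Embryonic and growing glands gave 49.2% at E18.5, 44.6% in TEBs and 26.9% at postnatal day 5, and pregnancy day 12.5 gave 20.3% (H) and 19.6% (G). Ducts gave 16.6%, pregnancy day 18.5 gave 2.89% (F4) and 5.05% (B4), and pre-puberty gave 2.56%. SWISS lay inside this wide range. These shares are not adjusted for depth, and epithelial cells had a median of 21859 UMIs in TEBs against 7395 in SWISS.

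Depth differs between the libraries, and a deeper cell reaches 3 UMIs more easily. Cells under 3000 UMIs were therefore left out of every library, 426 of them in SWISS and most cells of P7, whose median was 2644 UMIs. Each remaining cell was thinned to 3000 UMIs, and the expected share with 3 or more selecting UMIs was computed. This gave 17.8% (17.04 to 18.62) in SWISS, against 28.4% unthinned in the same 9085 cells, and 0.450 to 4.54% in the other 4 adult libraries. By class the thinned share was 21.0% (19.5 to 22.6) in basal, 16.7% (15.2 to 18.2) in LP and 16.0% (14.8 to 17.3) in ML cells. At equal depth and without cells under 3000 UMIs, the basal share lay above both luminal shares, whose intervals overlap. No class stood apart unthinned with all cells kept. The part of the left-out cells in this was not tested. The ratio to the highest other adult library rose to 3.93 over all cells and to 5.17 in basal, 4.32 in LP and 3.65 in ML cells.

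**Figure D2:**
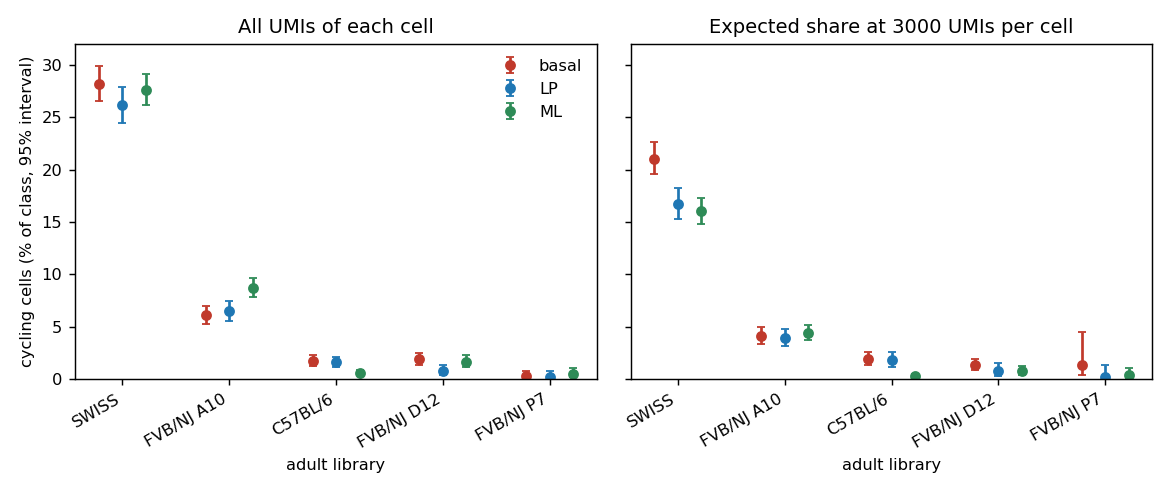
Cycling cells as a percentage of basal, LP and ML cells in the 5 adult libraries, from all UMIs (left) and as the share expected at 3000 UMIs per cell (right); bars are 95% exact binomial intervals, which cover counting error only. SWISS sits at 26.1 to 28.2% (left) and 16.0 to 21.0% (right), above the 4 other adult libraries in each class.

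Summed levels over all cells of a class, which do not use the threshold on selecting UMIs, were also highest in SWISS. The G2 and M list stood at 3600 CPM in SWISS basal, 3284 CPM in LP and 3534 CPM in ML cells, against 1266 to 1674, 1325 to 1411 and 1133 to 1590 CPM in the other 4 adult libraries. The S list stood at 1614 CPM in basal cells against 783 to 1296, at 1652 CPM in LP cells against 644 to 830 and at 1405 CPM in ML cells against 411 to 711. SWISS was highest in all 6 comparisons, least so for the S list of basal cells at 1.25 times the next library. The order of the other libraries was not that of their cycling shares, as P7, with the lowest share, had the highest level among them for both lists in basal cells and in ML cells. P7 was also the shallowest adult library, at a median of 2644 UMIs per epithelial cell. Its barcodes had 14 bases where those of A10, D12 and C57BL/6 had 16, and the part of either in its values was not tested.

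Cells outside the epithelial gate gave a background for the selecting UMIs. Among 842 such SWISS cells 7.84% (6.11 to 9.86) reached 3 of these UMIs and 15.3% had any, at a median of 3551 UMIs. At 3000 UMIs the share was 6.99%, against 7.38% in the same cells of FVB/NJ A10 and 0.607% in those of C57BL/6. No cell outside the gate reached 3 of these UMIs among 166 of P7 and 79 of D12, whose exact upper limits are 2.20 and 4.56%. SWISS thus stood close to A10 and well above C57BL/6 in these cells, and a cycling state of stromal cells and free RNA cannot be told apart there.

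Cycling cells were spread over the classes nearly as non-cycling cells were. Basal cells made up 31.9% of cycling and 30.2% of non-cycling cells, LP 25.6 and 28.6%, ML 38.6 and 37.4%, and cells in no class 3.81 and 3.90%. Among members 2164 of 2601 (83.2%) had more UMIs of the G2 and M list than of the S list, and 410 (15.8%) had more of the S list. The balance of these lists has no value that marks an even spread over the phases, since the G2 and M list also gave more UMIs in cells with no selecting UMI. The summed ratio of the G2 and M list to the S list was 2.75 (2.70 to 2.79) in basal, 2.17 (2.14 to 2.21) in LP and 2.65 (2.62 to 2.68) in ML members, against 1.35, 1.70 and 2.36 in cells of the same classes with no selecting UMI. The members thus exceeded that baseline most in basal and least in ML cells. LP cells had the largest share with more S UMIs, 22.2% against 15.0% in basal and 13.1% in ML cells. The same 4 genes chose the cells in every class and library, and 3 of them (Mki67, Top2a and Cenpf) peak after S phase. Top2a was detected in 84.2% of basal and 75.1% of LP members, and Mki67 in 79.7 and 86.1%. The part of the selecting genes in the order of the classes was not tested.

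The ratio varied more between adult libraries than between the classes of SWISS, which ran from 2.17 to 2.75. In A10 it was 2.38 in basal, 2.19 in LP and 2.87 in ML cells, and in C57BL/6 it was 3.84, 3.56 and 2.86. In D12 it was 1.45 in basal and 1.64 in ML cells. SWISS lay inside this range in basal and ML cells and within the counting interval of A10 in LP cells. At pregnancy day 12.5 the basal ratio was 4.39 in both libraries.

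**Figure D3:**
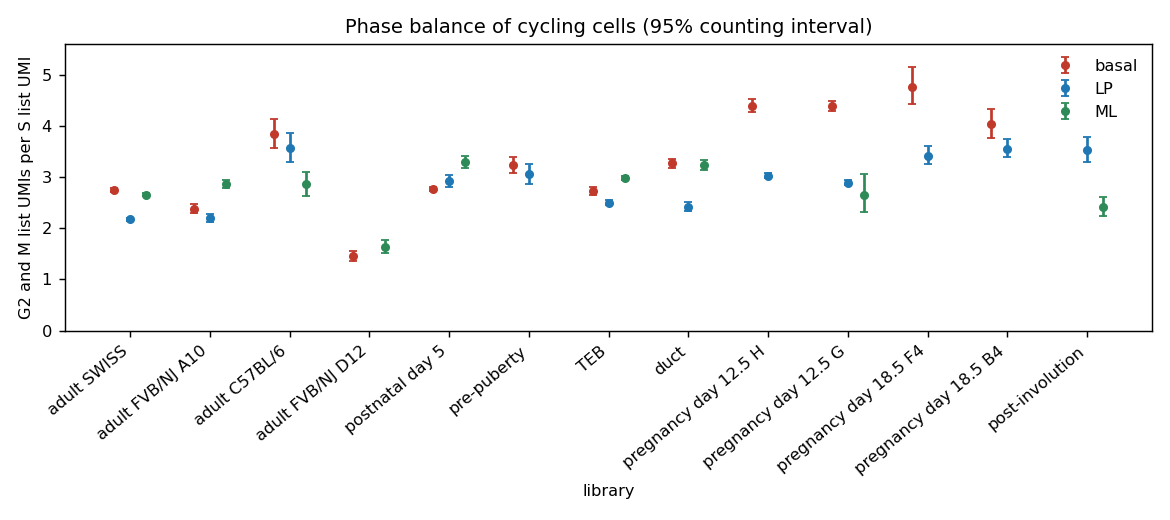
Summed UMIs of the G2 and M list per UMI of the S list in cycling cells of each postnatal library with at least 20 such cells in a class (y axis, from 0); bars are 95% counting intervals. SWISS basal, LP and ML cells sit at 2.75, 2.17 and 2.65, between D12 and C57BL/6 in basal cells.

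Gene by gene, cycling SWISS cells were set against non-cycling cells of the same class on the scale log2((CPM + 5)/(CPM + 5)), and a gene counts as higher or lower when it passed 2-fold. Genes of the rule, the keratins and the class genes were left out. In basal cells 335 of 6831 genes were higher (4.9%) and 35 lower (0.512%), in LP cells 429 of 7733 (5.55%) and 81 (1.05%), and in ML cells 390 of 8407 (4.64%) and 43 (0.511%). The median of all genes was 0.06, 0.14 and 0.13. Genes in one of 13 cell cycle lists were 170, 183 and 187 of those higher. Among 6210 genes measured in all 3 classes, 280 were higher in all 3 and 2 were lower in all 3. Because the 4 selecting genes move with the cell cycle, these counts describe the cells and are not a test.

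The same contrast was made in the other adult libraries, where cells were gated by the same 4 genes and summed by library and state. That gate fixes in part which cell cycle genes are higher there too, so for raised cell cycle genes the counts and fitted changes are descriptions of how alike the libraries were and no p is given. edgeR's quasi-likelihood test, with library as a term and adjustment over all genes, called 1046 of 11568 genes higher (9.04%) and 1085 lower (9.38%) in cycling basal cells of A10, C57BL/6 and D12. In LP cells of A10 and C57BL/6 it called 884 of 11324 higher (7.81%) and 864 lower (7.63%), and in ML cells of A10, C57BL/6 and D12 it called 1184 of 11859 higher (9.98%) and 1127 lower (9.5%). P7 had too few cycling cells. Called in all were 2131, 1748 and 2311 genes. Leaving out A10 gave 1225 in basal and 1117 in ML cells, and leaving out C57BL/6 gave 1327 in basal cells. The LP fit left 1 residual degree of freedom. Without scaling factors the splits became 1394 to 668, 1552 to 475 and 1698 to 599, as the median of all genes moved from -0.09 to 0.05, from -0.05 to 0.22 and from -0.04 to 0.12. A wider fit over all other postnatal libraries with enough cells (11 for basal, 11 for LP, 8 for ML), added after the data were seen, called 18.9% of genes higher and 24.3% lower in basal, 17.6 and 25.8% in LP, and 16.1 and 19.4% in ML cells. Adjusted p-values below are edgeR's. Each SE was worked out from the edgeR log2 change and its test statistic F, so it is not the spread between libraries. Both reach no further than these libraries. The fit steadies the spread of each gene with that of all genes. With 2 or 3 libraries a small p therefore rests in large part on other genes, and values by library are given for some genes.

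Every measured gene of the S phase list was above 0 in each SWISS class. Those 2-fold higher were 29 of 40 in basal, 38 of 43 in LP and 37 of 43 in ML cells, none was 2-fold lower, and the medians were 1.57, 1.91 and 1.80. Of all genes 4.9, 5.55 and 4.64% were 2-fold higher, and these shares also stand beside the list counts in the paragraphs below. Mcm5 stood at 70.8 CPM in cycling and 24.5 CPM in non-cycling cells of the basal class, at 98.5 against 15.9 CPM in LP and at 82.1 against 11.5 CPM in ML cells. It differed less between cycling and non-cycling basal cells (log2 1.36) than between those of LP (2.31) and ML (2.40). Hells had log2 values of 1.46, 2.30 and 2.12. In the other adult libraries the edgeR log2 change of Mcm5 was 2.95 ± 0.30 (SE) in basal, 3.44 ± 0.27 (SE) in LP and 4.33 ± 0.27 (SE) in ML cells. Of the S list, 40 of 43, 39 of 43 and 40 of 43 genes were called higher there, where 9.04, 7.81 and 9.98% of all genes were.

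Measured genes of the replisome and nucleotide synthesis lists were also all above 0 in each class, though not all by 2-fold. Of the licensing and replisome list 28 of 37, 32 of 38 and 32 of 38 genes were 2-fold higher, with medians of 1.22, 1.56 and 1.55. Pcna, the sliding clamp, stood at 74.3 against 29.0 CPM in basal and 82.9 against 25.05 CPM in LP cells. The nucleotide synthesis list had 8, 11 and 11 genes 2-fold higher of 20 listed. Examples that supply deoxynucleotides are given for basal cells. Rrm2, the regulated subunit of ribonucleotide reductase, stood at 138 against 11.3 CPM in basal cells, the thymidylate synthase Tyms at 193 against 23.3 CPM and the thymidine kinase Tk1 at 63.9 against 4.17 CPM. Cad, which starts pyrimidine synthesis for RNA and DNA alike, moved less, with log2 0.73 in basal, 1.22 in LP and 0.59 in ML cells. Of the S phase repair list 12 of 14, 13 of 17 and 16 of 19 genes were 2-fold higher, among them Brca1 (29.4 against 1.53 CPM in ML cells).

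Chromatin proteins gave the most abundant transcripts of the set. Hmgb2, a DNA-bending chromatin protein, stood at 1542 CPM in cycling and 161 CPM in non-cycling cells of the basal class, and it was detected in 98.9% and 50.5% of them. The histone variant H2afz stood at 2818 against 666 CPM, and was thus present in non-cycling cells as well. Hist1h1b, a linker histone of S phase, stood at 232 against 3.13 CPM in basal cells, the second highest log2 value there (4.86), although most replication-dependent histone transcripts carry no poly(A) tail and are poorly caught by this chemistry. Of the histone variant and HMG list 9 of 14, 12 of 15 and 11 of 16 genes were 2-fold higher.

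Mitotic genes had the largest differences. Of the G2 and M list 47 of 49, 46 of 50 and 47 of 51 measured genes were 2-fold higher, beside 4.9, 5.55 and 4.64% of all genes, with medians of 2.71, 2.47 and 2.70. Ube2c, with the highest log2 values, stood at 412 against 5.21 CPM in basal, 305 against 4.95 CPM in LP and 388 against 7.63 CPM in ML cells, and 65.9, 62.5 and 76.2% of cycling cells held it. The edgeR log2 change in the other adult libraries was 7.18 ± 0.44, 6.64 ± 0.40 and 6.66 ± 0.28 (SE). Cdk1 stood at 190.2 against 7.09 CPM, 132 against 3.23 CPM and 181 against 5.00 CPM.

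The machinery of chromosome segregation was raised in its great majority. Kinetochore and checkpoint genes were 2-fold higher in 27 of 28, 27 of 28 and 28 of 29 cases, with medians of 3.11, 2.71 and 2.70. Cenpe, a kinetochore motor, stood at 124 against 2.19 CPM in basal cells, and Ndc80, which holds the microtubule, at 41.1 against 0.313 CPM. Of the spindle list 23 of 23, 23 of 24 and 24 of 24 were 2-fold higher, and of the cytokinesis list 9 of 9 in each class, with medians of 3.35, 2.65 and 3.099. Prc1, which bundles the central spindle, stood at 233 against 4.06 CPM and the centralspindlin motor Kif23 at 102 against 2.08 CPM in basal cells, against 58.9 against 3.74 CPM for Kif23 in LP cells. Condensin and cohesin genes were 2-fold higher in 10, 11 and 11 of 15 listed cases. In the other adult libraries 9 of 9 cytokinesis genes and 28 of 29 kinetochore genes were called higher in each class, where 9.04, 7.81 and 9.98% of all genes were.

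Pttg1, securin, which holds back separase until anaphase, differed between libraries. It stood at 110.1 against 7.82 CPM in SWISS basal cells (log2 3.17) and at 92.2 against 6.58 CPM in ML cells (3.07). In basal cells it was 2.34 in A10, -0.04 in C57BL/6 and -0.22 in D12, and in ML cells 2.24, -0.52 and -0.50. SWISS was thus like A10 and unlike C57BL/6 and D12, in which cycling cells showed no excess of this transcript. The edgeR change over the 3 was 1.07 ± 0.35 (SE) in basal cells.

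Regulators of the cycle did not move as one group. Ccna2, Ccnb1 and Ccnb2, the S phase and mitotic cyclins, had log2 values of 4.37, 4.10 and 3.54 in basal cells. Ccne1, which drives S phase entry, had 1.48 in basal and 1.96 in LP cells. The D-type cyclin Ccnd1 differed by class, at 206 against 176 CPM (log2 0.22) in basal, 769 against 360.3 CPM (1.08) in LP and 371 against 267 CPM (0.46) in ML cells. In other adult libraries its basal values were 1.40 in A10, 1.57 in C57BL/6 and 1.88 in D12, all well above SWISS, and the edgeR change was 1.53 ± 0.17 (SE). In LP cells they were 1.76 and 0.40, on both sides of SWISS.

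Of the transcription factors Foxm1 stood at 19.5 against 0.834 CPM, Mybl2 at 19.9 against 3.86 CPM and E2f1 at 28.2 against 8.96 CPM in basal cells. In this list 9 of 13, 7 of 14 and 7 of 15 genes were 2-fold higher in basal, LP and ML cells, beside 4.9, 5.55 and 4.64% of all genes. Myc was not among them, with log2 values of -0.36, -0.53 and -0.15. In the other adult libraries 8, 8 and 11 of 18 genes were called higher and 1, 1 and 0 lower, where 9.04, 7.81 and 9.98% of all genes were higher. Among CDK inhibitors and pocket proteins 3 genes were 2-fold higher in each class, namely the INK4 members Cdkn2c and Cdkn2d and the pocket protein Rbl1. Cdkn2c stood at 41.9 against 6.15 CPM in basal cells, and its edgeR change in the other adult libraries was 3.25 ± 0.26 (SE). The inhibitor Cdkn1a, a p53 target, stood at 164 against 194 CPM in SWISS basal cells (log2 -0.23) and fell by the edgeR test in the other adult libraries, at -0.75 ± 0.19 (SE; adjusted p = 0.00547). Cdkn1b stayed under 2-fold in all 3 classes, at 0.43, 0.04 and 0.31. None of 11, 12 and 15 measured p53 target genes passed 2-fold, where 4.9, 5.55 and 4.64% of all genes were higher and 0.512, 1.05 and 0.511% lower, and their medians were 0.05, 0.06 and 0.06. By edgeR 4 of 16, 2 of 15 and 3 of 16 fell in the other adult libraries, where 9.38, 7.63 and 9.5% of all genes fell. In the postnatal fit 8 of 16, 5 of 15 and 5 of 16 fell, beside 24.3, 25.8 and 19.4% of all genes.

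No ribosome biogenesis gene passed 2-fold in any class. Above 0 were 13 of 17 in basal, 18 of 18 in LP and 17 of 17 in ML cells, where 56.9, 64.7 and 67.0% of all genes were above 0, and the list medians were 0.25, 0.46 and 0.47. Ncl, nucleolin, stood at 1609 against 1255 CPM in basal, 1670 against 1094 CPM in LP and 1325 against 796 CPM in ML cells. In the other adult libraries 1, 6 and 6 of 18 genes passed the edgeR test upwards and 0 downwards, where 9.04, 7.81 and 9.98% of all genes passed upwards, so the basal count was no more than that background. In the postnatal fit 8, 10 and 10 of 18 passed upwards, beside 18.9, 17.6 and 16.1% of all genes.

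**Figure D4:**
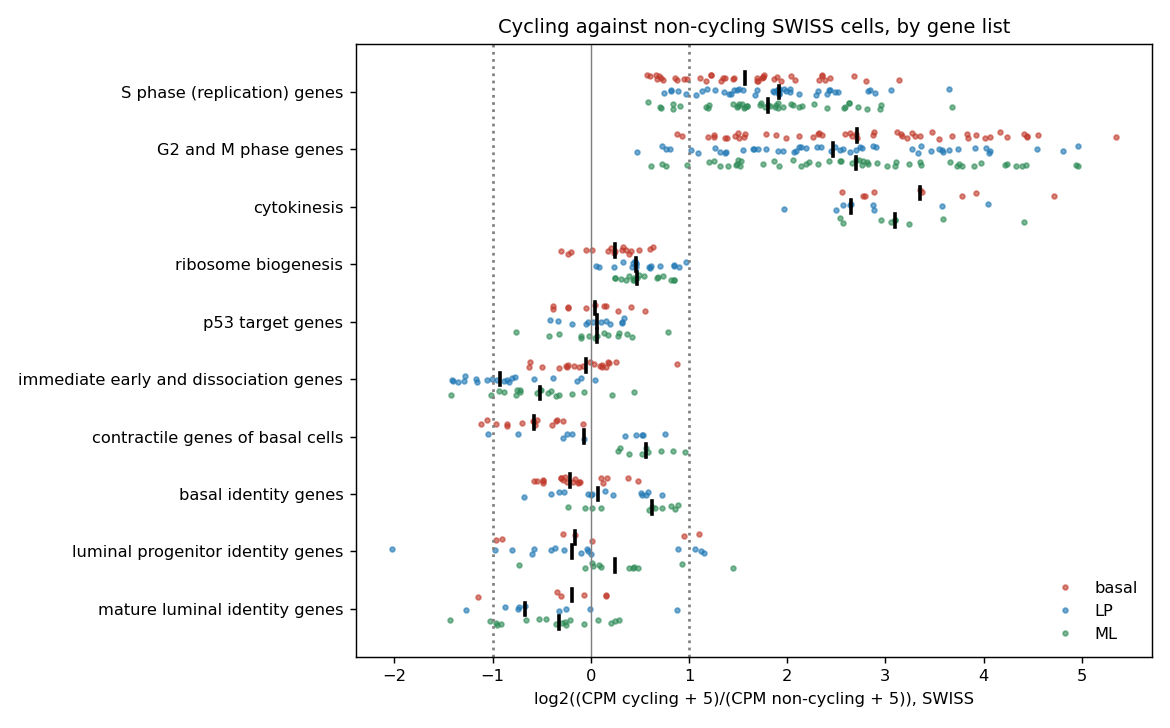
Each point is a gene of the named list in SWISS basal, LP or ML cells, placed by log2((CPM cycling + 5)/(CPM non-cycling + 5)); black bars are list medians and dotted lines mark 2-fold. Cytokinesis genes all sit beyond 2-fold, ribosome biogenesis genes sit between 0 and 2-fold for the most part, and immediate early genes sit lower in LP (median -0.92) than in basal cells (-0.04).

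Contractile genes were lower in cycling basal cells. All 15 measured members of this list were below 0 in SWISS, 2 of them by more than 2-fold, with a median of -0.58. Of all genes 56.9% were above 0 and 0.512% were 2-fold lower. Tagln, an actin-bundling protein of smooth muscle, stood at 1360 CPM in cycling and 2835 CPM in non-cycling cells (log2 -1.06), and Mylk, the myosin light chain kinase, at 142 against 313 CPM (-1.11). Acta2 stood at 4035 against 6007 CPM and Myh11, the smooth muscle myosin, at 311 against 614 CPM. Tagln was -2.02 in A10, -0.71 in C57BL/6 and -0.20 in D12, so the direction was shared and SWISS lay inside the range. By edgeR 14 of 17 contractile genes fell in basal cells of the other adult libraries, where 9.38% of all genes fell, Tagln at -1.13 ± 0.22 (SE; adjusted p = 0.000627) and Acta2 at -0.79 ± 0.18 (SE; adjusted p = 0.00213), and 16 of 16 fell in the postnatal fit, beside 24.3% of all genes. The oxytocin receptor Oxtr fell there by edgeR, at -1.51 ± 0.23 (SE; adjusted p = 2.27e-05), beside a SWISS log2 value of -0.55.

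In ML cells 9 genes of the contractile list were measured, and none passed 2-fold in SWISS. All 9 were above 0, as were 67.0% of all genes, and their median was 0.56 beside 0.13 for all genes. A gene could enter by detection in either state, and the cycling cells were deeper, so the filter may in part set this direction. Without the detection filter 61.3% of all genes were above 0 in ML cells. The part of the filter in the list was not tested. Acta2 was held by 25.1% of cycling and 14.4% of non-cycling ML cells, at 219 against 119.8 CPM. The share of keratin UMIs from the basal pair and the depth were higher in the same cells, as given above, and their part was not tested. By edgeR 4 of 16 contractile and 9 of 23 basal identity genes rose in cycling ML cells of the other adult libraries, where 9.98% of all genes did. The keratin Krt17 was among them, with 108 against 55.6 CPM in SWISS and an edgeR change of 0.82 ± 0.21 (SE; adjusted p = 0.00436). The difference of the Tagln change between ML and basal cells was 1.14 (adjusted p = 0.0131, edgeR interaction in the postnatal libraries), a contrast that called 6.18% of 12795 genes.

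Further named genes were lower in cycling SWISS basal cells by more than 2-fold. Igfbp5, which binds insulin-like growth factors, stood at 505 CPM in cycling and 1733 CPM in non-cycling cells (log2 -1.77), and was -2.40, -2.11 and -1.53 in A10, C57BL/6 and D12. The protease inhibitor Slpi stood at 15.5 against 107 CPM, the gelatinase Mmp2 at 11.5 against 49.6 CPM and the chitinase-like protein Chil1 at 32.9 against 116 CPM. By edgeR these fell in the other adult libraries, Igfbp5 at -2.19 ± 0.18 (SE; adjusted p = 8.19e-10), Mmp2 at -2.84 ± 0.24 (SE; adjusted p = 2.16e-09) and Chil1 at -3.06 ± 0.28 (SE; adjusted p = 6.29e-09). Of the 20 measured basal identity genes none was 2-fold apart in SWISS basal cells, with a median of -0.21, and the basal master regulator Trp63 stood at 57.2 against 62.4 CPM. By edgeR 9 of 23 fell and 2 rose in the other adult libraries, where 9.38% of all genes fell and 9.04% rose, and 13 of 23 fell in the postnatal fit, beside 24.3%.

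The pair of genes lower by 2-fold in all 3 classes was Mxd4 and Tcp11l2. Mxd4 encodes a partner of MAX that opposes MYC. It stood at 31.1 against 83.0 CPM in basal, 32.4 against 76.2 CPM in LP and 27.4 against 62.2 CPM in ML cells, and its edgeR change in the other adult libraries was -1.49 ± 0.19 (SE; adjusted p = 1.58e-06), -1.14 ± 0.21 (SE; adjusted p = 0.00157) and -1.15 ± 0.19 (SE; adjusted p = 1.32e-05). It was below 0 in 11 of 11, 11 of 11 and 8 of 8 other postnatal libraries. Tcp11l2 stood at 5.21 against 23.6 CPM, 6.53 against 20.7 CPM and 4.77 against 14.7 CPM, and was below 0 in all of the same libraries.

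Immediate early genes, which respond within minutes to growth factors and also to tissue dissociation, separated the classes in SWISS. None of 20 was 2-fold apart in basal cells (median -0.04), 9 of 20 were lower in LP (median -0.92) and 2 of 19 in ML cells (median -0.52), where 0.512, 1.05 and 0.511% of all genes were 2-fold lower. Fos stood at 1334 against 1117 CPM in basal (log2 0.26), 1368 against 3507 CPM in LP (-1.36) and 1560 against 2979 CPM in ML cells (-0.93). Jun stood at 902 against 793 CPM, 754 against 1841 CPM and 1482 against 2495 CPM. Within cells of 5000 to 20000 UMIs the Fos values were 0.49, -1.06 and -0.88.

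Other adult libraries did not show this basal pattern. There Fos in basal cells was -1.59 in A10, -0.49 in C57BL/6 and -0.31 in D12, and it fell by edgeR at -0.95 ± 0.19 (SE; adjusted p = 0.000769). The range over 11 other postnatal libraries was -1.59 to 0.06, below the SWISS value in each. Nr4a1, an orphan nuclear receptor of the same list, stood at 349.6 against 188 CPM in SWISS basal cells (log2 0.88), above the range of -0.23 to 0.48 in those libraries. Of the 20 genes 13, 17 and 16 fell by edgeR in basal, LP and ML cells of the other adult libraries, beside 9.38, 7.63 and 9.5% of all genes. The interaction of state and class in the postnatal libraries did not pass for Fos (LP minus basal 0.21, adjusted p = 0.681, where 3.23% of genes passed) or for Jun (-0.08, adjusted p = 0.895), so a class difference as in SWISS was not detected there.

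Several named genes were lower in cycling LP cells by more than 2-fold. Txnip, which restrains glucose uptake and binds thioredoxin, stood at 70.7 CPM in cycling and 378 CPM in non-cycling cells of this class, with a log2 value of -2.34 (-1.94 within the window of 5000 to 20000 UMIs). It was -1.70 in A10 and -1.02 in C57BL/6 and fell by edgeR at -1.64 ± 0.19 (SE; adjusted p = 1.53e-05). SWISS lay below the range of all 11 other postnatal libraries, -1.79 to 0.18. The small heat shock protein Cryab stood at 46.4 against 167 CPM (log2 -1.74), again under the range of the others, -0.91 to 0.29, and was not apart in SWISS basal (155 against 164 CPM) or ML cells (20.1 against 20.9 CPM). Lactoferrin, Ltf, stood at 12.3 against 65.3 CPM and the stress-induced chromatin protein Nupr1 at 28.3 against 120.1 CPM, and both were below 0 in 11 of 11 libraries.

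Of the 4 caseins in the luminal progenitor identity list, 2 were 2-fold higher in cycling LP cells of SWISS, Csn3 was higher by less and Csn1s2a was level. They were singled out after their values were seen. Csn2, beta-casein, stood at 939 CPM in cycling and 428 CPM in non-cycling cells (log2 1.12), Csn1s1 at 1779 against 849 CPM (1.06), Csn3 at 2010 against 1080 CPM (0.89) and Csn1s2a at 112 against 115 CPM (-0.03). Csn3 was held by 88.8% of cycling and 62.8% of non-cycling LP cells. In SWISS basal cells the shares were 15.4 and 7.60% at median depths of 8494 and 5294 UMIs and the levels 52.2 against 24.6 CPM, so the ratio there was alike (log2 0.95) at a far lower level. In SWISS ML cells Csn3 was likewise higher, at 202 against 104 CPM in 24.3 and 13.4% of cells, so its rise was not particular to LP cells. Csn2 in basal cells was 4.14 against 6.77 CPM. The part of free RNA, depth and opposite-lineage keratin in these ratios was not tested.

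In the other libraries Csn2 was -0.21 in A10 and 0.00 in C57BL/6, and was above 0 in 0 of 11, with a range of -1.63 to 0.00 and an edgeR change in the postnatal fit of -0.68 ± 0.13 (SE; adjusted p = 0.000770). Csn1s1 and Csn3 were above 0 in 3 of 11 each, C57BL/6 among them at 1.13 and 0.73, and A10 had -0.25 and -1.14. The edgeR change of Csn3 in the 2 adult libraries was -0.47 ± 0.29 (SE; adjusted p = 0.326). Csn1s2a fell there, at -1.29 ± 0.18 (SE; adjusted p = 0.000115). Of the 16 measured LP identity genes in SWISS 5 were above 0 and 11 below, where 64.7% of all genes were above 0. The 3 that were 2-fold higher were Csn2, Csn1s1 and Kcnn4 (values below). Trf, transferrin, stood at 1041 against 1344 CPM and Lcn2 at 1483 against 1795 CPM, and the list's median was -0.19. By edgeR 13 of 23 LP identity genes fell and 1 rose in the other adult libraries, where 7.63% of all genes fell and 7.81% rose. In the same fit 5 of the 8 tested fibroblast markers fell, with a median of -2.71, and the immune marker Cd74 rose by 4.07 ± 0.97 (SE; adjusted p = 0.00922), and their part was not tested.

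Further genes outside the cell cycle lists were higher in cycling LP cells. The retinoid-binding protein Rbp7 stood at 83.1 against 7.68 CPM and was held by 37.0% against 3.40% of cells, while basal cells had 0.534 against 0.313 CPM. It rose by edgeR in A10 and C57BL/6, at 3.94 ± 0.27 (SE; adjusted p = 7.74e-08), but was above 0 in 6 and below 0 in 4 of 11 postnatal libraries. Kcnn4, a calcium-activated potassium channel, stood at 122 against 51.9 CPM and was above 0 in 11 of 11, with an edgeR change of 1.004 ± 0.18 (SE; adjusted p = 0.00114) in the adult libraries. Slfn9, of the Schlafen family, stood at 57.3 against 6.26 CPM in LP, 58.5 against 4.79 CPM in ML and 12.7 against 3.44 CPM in basal cells.

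Among the named genes of ML cells that were lower in cycling cells, Lrg1, a leucine-rich glycoprotein, stood at 21.2 CPM in cycling and 140.2 CPM in non-cycling cells (log2 -2.47), haptoglobin, Hp, at 106 against 439 CPM (-1.99), the beta-defensin Defb1 at 217 against 791 CPM and the extracellular peroxidase Gpx3 at 353 against 1153 CPM. Lrg1 was -1.67 in A10, -2.09 in C57BL/6 and -0.64 in D12, weaker than in SWISS but in the same direction. By edgeR Lrg1 fell at -1.91 ± 0.23 (SE; adjusted p = 4.81e-08), Hp at -1.57 ± 0.19 (SE; adjusted p = 6.86e-08) and Gpx3 at -1.42 ± 0.16 (SE; adjusted p = 9.27e-09). Ly6d, a surface marker of mature luminal cells, stood at 387 against 797 CPM and fell at -1.46 ± 0.10 (SE; adjusted p = 6.3e-14). Of the mature luminal identity list 14 of 18 were below 0 in SWISS, 2 by 2-fold, where 67.0% of all genes were above 0 and 0.511% were 2-fold lower. By edgeR 15 of 24 fell in the other adult libraries, beside 9.5% of all genes. In the same fit 3 of the 7 tested fibroblast markers fell, with a median of -1.30, and their part was not tested.

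Acot7, an acyl-CoA thioesterase, differed between classes. It stood at 65.2 against 27.3 CPM in ML cells (log2 1.12), held by 57.1% against 19.5% of cells, at 9.48 against 10.2 CPM in LP and at 13.9 against 19.3 CPM in basal cells. It was 1.51, 1.85 and 0.69 in ML cells of A10, C57BL/6 and D12 and above 0 in 8 of 8 postnatal libraries. The edgeR interaction there gave 1.502 for ML minus basal (adjusted p = 1.37e-05) and -1.33 for LP minus ML (adjusted p = 0.000433, where 1.63% of genes passed).

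Of 10 measured hormone response genes 1 was 2-fold higher in cycling SWISS ML cells and none 2-fold lower, where 4.64 and 0.511% of all genes were, and the list median was 0.04. By edgeR 4 of 13 rose and 4 fell in the other adult libraries, beside 9.98 and 9.5% of all genes. In the postnatal fit 5 of 12 rose and 5 fell, beside 16.1 and 19.4%. Tnfsf11, which encodes RANKL, a mediator of progesterone, stood at 112 against 139 CPM in cycling against non-cycling ML cells, and was held by 46.9 and 38.2% of them, against 0.963 and 0.292% of basal cells. In non-cycling ML cells of the other adults it was 0.863 CPM in A10, 0.391 CPM in C57BL/6, 0.936 CPM in D12 and 17.05 CPM in P7. Calca, which encodes calcitonin and is also known to follow progesterone in the gland, stood at 1112 against 963 CPM in SWISS. It stood at 0, 19.6, 25.7 and 15.5 CPM in non-cycling ML cells of A10, C57BL/6, D12 and P7. Both were thus several times higher in SWISS ML cells, cycling or not, than in any other adult library, with 1 SWISS library and no staging of estrus. They were singled out after their values were seen, and other listed genes went both ways. In non-cycling ML cells of SWISS, A10 and C57BL/6, Pgr stood at 83.3, 176 and 203 CPM and Wnt5a at 52.7, 143 and 102 CPM. Areg stood at 3294, 2708 and 2163 CPM in the same order.

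Wnt4, another progesterone target, was also highest in non-cycling ML cells of SWISS, but by less over the next library. It stood at 484 CPM there, against 335, 342, 120 and 32.3 CPM in those of the other 4 in the same order. In cycling ML cells Wnt4 stood at 334 CPM in SWISS, 183 CPM in A10 and 167 CPM in C57BL/6. It fell in cycling ML cells by edgeR, at -1.05 ± 0.13 (SE; adjusted p = 8.09e-08). Stc2, stanniocalcin 2, stood at 210.1 against 401 CPM in SWISS (log2 -0.92) and fell by edgeR in the other adult libraries, at -0.82 ± 0.13 (SE; adjusted p = 1.04e-05). The gene 2-fold higher in SWISS was the activin antagonist Fst (71.9 against 31.3 CPM), for which the edgeR change was 1.79 ± 0.21 (SE; adjusted p = 3.43e-08). It was 1.76 in A10, -0.14 in C57BL/6 and 2.70 in D12, so the libraries split. The receptor genes Prlr (914 and 1964 CPM) and Pgr (60.0 and 83.3 CPM) helped to define the ML class and are given as values only. Of the mitogen receptor and ligand list 12, 14 and 15 genes were measured in basal, LP and ML cells and of the Notch list 7, 6 and 7. None passed 2-fold, beside the shares of all genes given above, and the medians were -0.32, -0.33 and -0.15 and 0.04, -0.31 and 0.11. By edgeR 6 of 23, 5 of 22 and 4 of 23 mitogen genes fell in the other adult libraries and 1, 1 and 2 rose, where 9.38, 7.63 and 9.5% of all genes fell and 9.04, 7.81 and 9.98% rose. Of the Notch list 3 of 10, 2 of 11 and 1 of 10 fell there, the last near the share of all genes. In the postnatal fit 8 of 23, 11 of 21 and 4 of 19 mitogen genes fell, beside 24.3, 25.8 and 19.4% of all genes.

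**Figure D5:**
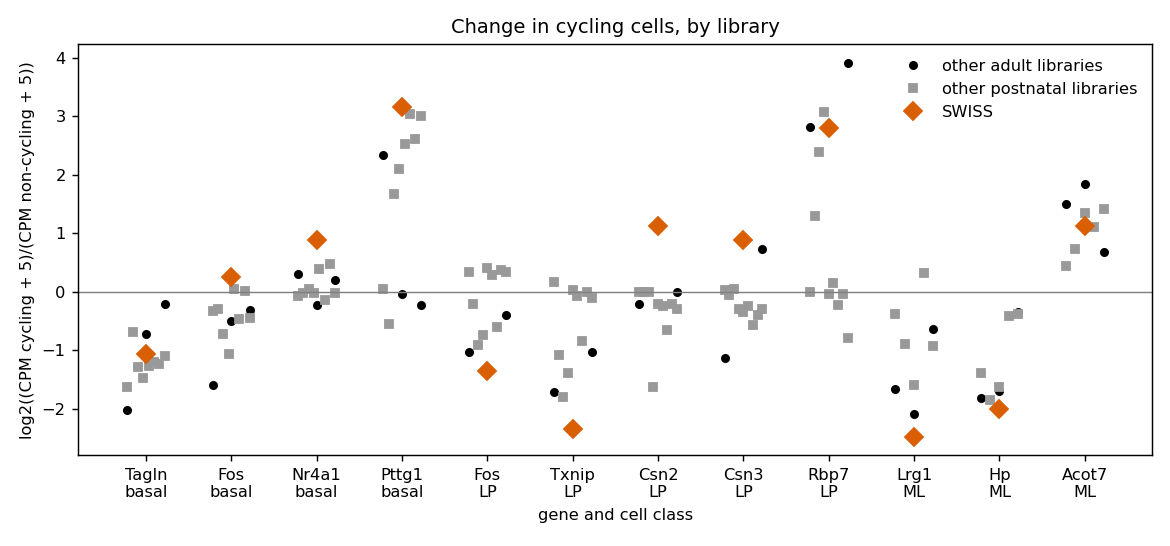
Change in cycling cells, as log2((CPM cycling + 5)/(CPM non-cycling + 5)), for 12 gene and class pairs in SWISS (diamonds), the other adult libraries (circles) and the other postnatal libraries (squares). SWISS lies above the others for Fos and Nr4a1 in basal cells and for Csn2 in LP cells, below them for Fos and Txnip in LP cells and for Lrg1 and Hp in ML cells, and among them for Tagln, Rbp7 and Acot7.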

How the data were processed

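The deposited values are raw UMI counts, one for each gene and barcode. The authors produced these counts in Cell Ranger (version 3.0.2 for SWISS and 3.1.0 for 2 libraries per the file headers) from 10x Chromium 3′ libraries aligned to mm10 per the submitters' notes. Counts are not normalised. The SWISS library held 11135 barcodes and 85865973 UMIs, 10353 cells passed the limits on genes and mitochondrial UMIs, and epithelial cells had a median of 7395 UMIs and 2300 genes. No doublet caller was run.

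Counts were summed over cells and scaled to CPM. A gene was compared in SWISS with at least 50 UMIs over both states and detection in at least 10% of cells of either state, and 5 CPM was added to both sides. The 19 genes of the gates were left out. In the other libraries with at least 20 cells of each state, sums were tested with edgeR 4.0.16 (R 4.3.3, quasi-likelihood fit, TMM scaling, filterByExpr, library as a term, two-sided), and a gene was called when its p, adjusted by the Benjamini-Hochberg method, was under 0.05. The test was checked on simulated counts. DESeq2 1.42.0 was an alternative. Shares carry exact binomial intervals and count ratios exact intervals. Thinned shares are expected values under sampling without replacement. Promoter windows are RefSeq's on GRCm38.p6.

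Named genes were the 10 highest and 10 lowest of each class, the 10 highest outside the cell cycle lists, the 10 with the largest range between classes, and members of the lists. The cells and lists were chosen with earlier results of these data known. Other settings tried were the threshold, depth, keratin call, pseudocount, filters, scaling and left-out libraries.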

Additional observations from a re-analysis of the deposited data

Results flagged for a closer look

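The change of a gene in cycling cells differed between classes in the other postnatal libraries for 6 of the 10 genes with the largest range between SWISS classes (edgeR interaction of state and class, library by class as a term, adjusted over all 12795 genes). Such differences were called for 3.23% of genes between LP and basal, 6.18% between ML and basal and 1.63% between LP and ML cells. The 10 genes were chosen by their range in SWISS, and the test used none of its cells. Classes from the same library entered as separate blocks, so their sharing of a library was not modelled.

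Acot7 gave -1.33 for LP minus ML (adjusted p = 0.000433) and 1.502 for ML minus basal cells (adjusted p = 1.37e-05), as it rose in cycling ML cells only by the separate edgeR fits (1.18 ± 0.15, SE). Cryab gave -0.81 for LP minus ML (adjusted p = 0.0126), where it fell in LP cells and not in ML cells. Dclk1, a microtubule-associated kinase, gave -1.68 for LP minus ML (adjusted p = 0.00688) and stood at 16.2 against 11.3 CPM in SWISS ML cells. Igfbp5 gave 1.12 for ML minus basal cells (adjusted p = 0.0193), having fallen in both. Slfn9 gave -1.42 for LP minus ML (adjusted p = 0.035), having risen in both. In SWISS its range lay instead between basal and luminal cells. By the same edgeR interaction LP minus basal (-0.33, adjusted p = 0.780) and ML minus basal (1.09, adjusted p = 0.132) did not pass. Tagln gave 1.14 for ML minus basal cells (adjusted p = 0.0131). The other 4 genes, Fos, Jun, Thbs1 and Txnip, passed in no contrast.

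SWISS cells that passed the epithelial gate but belonged to no class were outside the comparisons. Of these 380 cells 26.1% (21.7 to 30.8) were cycling, against 17.8% (14.7 to 21.3) in A10, the next adult library. At 3000 UMIs per cell the shares were 18.6% (14.6 to 23.2) and 12.8% (9.54 to 16.4), with overlapping intervals. The opposite-lineage keratin pair took 27.7% of keratin UMIs in the cycling and 12.9% in the non-cycling cells of this group, and its part was not tested.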

How the results depend on the processing

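Shares moved with the threshold: at 2 selecting UMIs they were 31.5% over all cells and 32.9, 28.7 and 32.3% in basal, LP and ML cells, at 5 they were 22.8% and 23.4, 21.6 and 23.5%, and thinned to 3000 UMIs 17.8% and 21.0, 16.7 and 16.0%. With a clear keratin call the share was 26.4%. The ratio of G2 and M to S UMIs, 2.58 over all cells, was 2.66 at a threshold of 5 and 2.49 with a clear keratin call. Counts of genes 2-fold apart in SWISS stayed within 1.5 times of 370, 510 and 433 under each setting tried. Without the detection filter the shares of genes 2-fold higher were 2.97, 3.53 and 2.92% in place of 4.9, 5.55 and 4.64%, as more genes were tested. The shares of genes above 0 were then 51.4, 58.2 and 61.3% in place of 56.9, 64.7 and 67.0%. Over 112 pairs of a named gene and a class in SWISS, 573 values moved by less than their counting interval and 99 by more, none changing direction where called.

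Counts of genes called by edgeR moved more. Without the library as a block they were 324, 93 and 351 in basal, LP and ML cells, and by DESeq2 1111, 651 and 1245. The labels give these groups no shared replicate numbers, so the block is the library. Leaving out 1 library gave 1225 to 2243 in basal and 1117 to 2184 in ML cells, and this could not be run for LP cells with 2 libraries. With SWISS added the counts were 2666 in LP and 3615 in ML cells, in cells of 5000 to 20000 UMIs 1150 in LP, and over all other postnatal libraries, added after the data were seen, 4916, 4498 and 3722. For named genes in these fits 1160 values kept their direction and side of the threshold, 66 lost the call and 7 gained it. The cause of these moves was not tested.

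With 1 SWISS library no difference from another strain carries a replicate check, and transcripts at a few CPM rest on few UMIs.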

Other observations

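The SWISS library shared 42 cell barcodes with the C57BL/6 adult, 12 with the pre-puberty library and 11 with the postnatal day 5 library. Other libraries' cycling shares were 37.3% in E18.5 skin, 16.6% in ducts, 5.05% in B4 and 2.89% in F4 of pregnancy day 18.5, 2.56% before puberty and 1.44% post-involution.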
